A study of Mus musculus with 10 samples.

Results

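Collagen genes were taken as every gene of the deposited RNA table whose symbol had the form Col, a type number, a, and a chain number, which gave 44 of 57180 genes. They comprised 11 genes of fibrillar collagens, 8 of basement membrane collagens and 25 of other types. The cells were mouse NSPCs (neural stem and progenitor cells) prepared from brain, with genotype Mina53-KO or WT and the treatment given as non for all. Mina53, encoded by Riox2, is a JmjC-domain oxygenase that the series' title describes as acting on an arginine methyl mark of histone H4. RNA was sequenced from 3 Mina53-KO and 3 WT libraries, and CUT&Tag, which cuts and tags DNA near an antibody's target, was run on 2 Mina53-KO and 2 WT libraries. The sources used here do not state how the KO was made, whether it is 1 line, the age or sex of the mice, the brain region or the CUT&Tag antibody. The labels do not tie libraries to separate animals or cultures, so every p-value measures only the spread between these libraries.

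Collagens are secreted proteins whose chains wind into a triple helix. Fibrillar collagens build the fibrils of connective tissue, type IV collagens form the mesh of basement membranes, and smaller types decorate fibrils, form beaded filaments or span the cell membrane. In the brain, the basement membranes of the pia and the blood vessels hold most collagen, and neural stem cells contact these membranes in their niche. Chains are hydroxylated and folded in the endoplasmic reticulum, trimmed outside the cell, cross-linked by oxidases and peroxidases, and bound by integrins and discoidin domain receptors.

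RNA libraries held 19923010 to 25939376 counts, of which collagen genes took 0.0452% to 0.0581% in the Mina53-KO libraries and 0.0362% to 0.0557% in the WT libraries. Riox2 had 3.26, 3.78 and 3.70 CPM (counts scaled to a common library size) in Mina53-KO libraries 1, 2 and 3 and 20.0, 17.2 and 18.5 CPM in WT libraries 1, 2 and 3. The libraries also differed in a way the genotypes did not set. Mitochondrial genes took 2.68% and 2.65% of counts in Mina53-KO 1 and 2 and 2.31% in WT 1, but 4.64% in Mina53-KO 3 and 5.71% and 3.52% in WT 2 and 3. Summed collagen CPM followed the same division: 572 and 571 in Mina53-KO 1 and 2 and 554 in WT 1, against 451 in Mina53-KO 3 and 375 and 451 in WT 2 and 3. Values within the 3 low-share and the 3 high-share libraries are therefore given beside the pooled ones. They come from a shared fit to all RNA libraries, with a group for each genotype in each class, compared within a class. Each class has a lone library of 1 genotype, which is assumed to vary like the others, so effect sizes are given without p-values. The part of the mitochondrial share in the results was not tested further. All 12 listed neural stem and progenitor markers were measured, with sums of 7687 to 8688 CPM in Mina53-KO and 7201 to 7488 CPM in WT libraries. Of these, Vim rose (log2 fold change 0.69, edgeR adjusted p = 0.0353) and Slc1a3 fell (log2 fold change -0.47, edgeR adjusted p = 0.0402). Of all genes tested, 3.43% were called. Pax6 had 23.3, 25.3 and 23.3 CPM in Mina53-KO and 34.2, 31.1 and 35.2 CPM in WT libraries. Its genotypes did not overlap, but its log2 fold change of -0.49 did not pass (edgeR adjusted p = 0.0571).

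The starts of the genes that changed, and of Col4a5, the head-to-head neighbour of Col4a6, are shown for their sequence. Each runs 5′ to 3′ on the gene's strand from 250 bases before to 50 bases after a start annotated by RefSeq on GRCm38.p6, and capitals mark GGGCGG and CCAAT on either strand (the reverse letters are CCGCCC and ATTGG).
Col18a1 upstream start, chr10:77166481-77166780 (-): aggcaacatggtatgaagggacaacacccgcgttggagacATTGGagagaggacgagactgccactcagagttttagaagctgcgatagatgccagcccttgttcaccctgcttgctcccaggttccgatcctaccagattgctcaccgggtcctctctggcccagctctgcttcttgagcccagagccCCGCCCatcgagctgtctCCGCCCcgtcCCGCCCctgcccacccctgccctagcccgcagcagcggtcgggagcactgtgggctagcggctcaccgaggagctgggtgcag
Col18a1 downstream start, chr10:77113656-77113955 (-): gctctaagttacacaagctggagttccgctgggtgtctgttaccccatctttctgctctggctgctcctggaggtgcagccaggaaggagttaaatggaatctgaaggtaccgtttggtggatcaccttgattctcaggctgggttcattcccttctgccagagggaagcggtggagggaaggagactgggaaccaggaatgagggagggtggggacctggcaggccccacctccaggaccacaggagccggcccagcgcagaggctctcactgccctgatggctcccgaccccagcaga
Col4a6, chrX:141474027-141474326 (-): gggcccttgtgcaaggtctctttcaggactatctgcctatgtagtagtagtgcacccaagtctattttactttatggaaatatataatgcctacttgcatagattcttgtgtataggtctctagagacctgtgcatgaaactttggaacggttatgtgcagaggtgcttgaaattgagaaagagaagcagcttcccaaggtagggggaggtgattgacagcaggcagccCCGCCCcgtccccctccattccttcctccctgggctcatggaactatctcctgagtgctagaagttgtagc
Col4a5, chrX:141475169-141475468 (+): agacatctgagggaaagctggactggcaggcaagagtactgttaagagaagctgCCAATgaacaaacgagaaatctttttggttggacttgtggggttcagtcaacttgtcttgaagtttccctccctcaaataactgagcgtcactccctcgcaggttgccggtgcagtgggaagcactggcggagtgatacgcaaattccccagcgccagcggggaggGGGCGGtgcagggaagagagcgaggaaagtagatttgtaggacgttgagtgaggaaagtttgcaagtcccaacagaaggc
The starts of Col4a6 and Col4a5 lay 1343 bases apart on opposite strands of chromosome X. Col4a1 and Col4a2, another pair of type IV genes, start 21 bases apart on opposite strands of chromosome 8. The upstream Col18a1 window held 63.3% G and C, 16 CpG dinucleotides, 3 GGGCGG and 1 CCAAT, whereas the downstream Col18a1 window held 59.7% G and C, 6 CpG and neither motif. The Col4a6 window had 48.3% G and C, 3 CpG and 1 GGGCGG, and the Col4a5 window had 52.7% G and C, 11 CpG, 1 GGGCGG and 1 CCAAT. RefSeq windows were matched for 35 of the 44 genes, 38 windows in all. GGGCGG occurred in 23 of these 38 windows (60.5%), against 35.7% of 32851 mouse windows, and CCAAT in 13 (34.2%), against 37.4%. TATAAA occurred in 5 collagen windows (13.2%), against 13.6% of all windows. The median G and C content was 59.8% in collagen windows and 52.7% in all windows. A match describes letters in a window and is not evidence of binding.

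Most collagen RNA came from a few genes, among them the fibrillar genes Col5a2, Col11a1 and Col5a3, whereas the chains of types I and III were near the limit of detection. On the per-length scale (TPM, which divides counts by gene length), 15 of the 44 genes averaged at least 1 and the 10 highest held 87.4% of the total. Col5a2, a type V chain that helps to set fibril diameter, had 32.4, 31.7 and 27.8 TPM in Mina53-KO libraries 1, 2 and 3 and 29.4, 22.3 and 28.8 TPM in WT libraries 1, 2 and 3. Col16a1, which associates with fibrils, averaged 24.9 TPM over all 6 libraries, Col11a1, a chain of minor fibrillar collagen, 23.2 TPM, and Col4a5 23.0 TPM. These 3 overlapped one another across libraries and are not ordered beyond their spread. Col5a3 followed at 14.6, Col6a1 at 11.3, Col18a1 at 9.65, Col9a3 at 9.41, Col4a6 at 9.17 and Col4a1 at 7.35 TPM. Col1a1 and Col3a1, chains of the main collagens of skin and bone, averaged 0.135 and 0.174 TPM. Col1a2, the partner chain of Col1a1, had 0, 1 and 0 counts in Mina53-KO and 0, 5 and 0 counts in WT libraries.

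**Figure D1:**
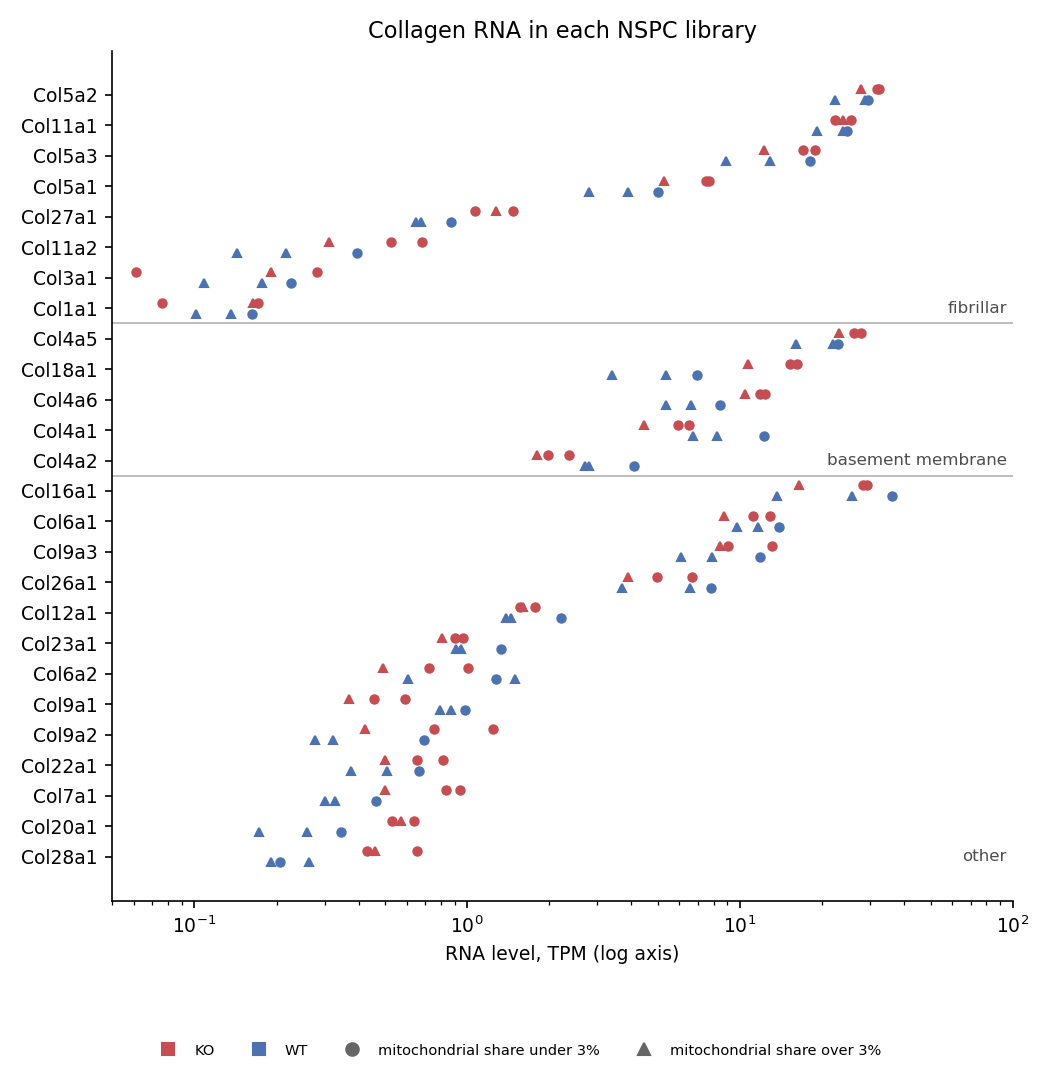
TPM (log axis) of the 26 tested collagen genes by class, with Mina53-KO libraries above WT libraries in each row; circles are libraries with a mitochondrial share under 3% and triangles those over it. Col5a2 averaged 28.7 TPM over the 6 libraries, whereas Col1a1 averaged 0.135 TPM.

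Fibrillar collagens summed to 79.6 ± 7.85 TPM in Mina53-KO and 68.0 ± 12.5 TPM in WT libraries (SD, n = 3 each), or 40.3% and 39.6% of collagen TPM. Basement membrane collagens summed to 59.2 ± 7.43 TPM in Mina53-KO and 44.8 ± 10.2 TPM in WT libraries, or 30.0% and 26.1%. The other types summed to 58.8 ± 13.3 TPM in Mina53-KO and 58.9 ± 19.8 TPM in WT libraries. By library, basement membrane sums were 64.5, 62.5 and 50.7 TPM in Mina53-KO and 54.98, 34.5 and 44.99 TPM in WT libraries. The genotypes overlapped over all 6 libraries, since WT 1 was above Mina53-KO 3, but Mina53-KO was above WT within the low-share and within the high-share libraries. Fibrillar sums were 86.7, 80.7 and 71.2 TPM in Mina53-KO and 79.1, 54.4 and 70.6 TPM in WT libraries, and followed the same pattern. No test was made on the sums. In bulk libraries, fewer cells of a type and less RNA per cell cannot be told apart.

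In RNA, 2 of the 26 collagen genes with enough reads to test rose in Mina53-KO cells and none fell, at an adjusted p below 0.05 in edgeR's quasi-likelihood test over 15298 genes. Of all genes tested, 3.43% were called, 1.77% as higher and 1.66% as lower. Both genes, Col18a1 and Col4a6, encode basement membrane collagens. At an unadjusted p below 0.05 there were 11 collagen genes, 8 higher and 3 lower, against 13.7% of all genes tested. DESeq2 called 5, against 6.26% of all genes, adding Col5a1, Col27a1 and, as lower, Col4a1. The other 24 tested genes did not pass in edgeR, and 18 had too few reads. Of the 26, 20 passed the filter on low counts through both genotypes, 4 through Mina53-KO alone (Col11a2, Col9a2, Col20a1 and Col28a1) and 2 through a mix of libraries. The median log2 fold change was 0.21 over the 26 collagen genes and 0.01 over all genes tested. The medians in this paragraph are not adjusted for mitochondrial share. With genotype in the model, 13 of the 26 were higher in the low-share libraries (Mina53-KO 1 and 2 and WT 1) and 0 lower, at an edgeR adjusted p below 0.05. The share of all genes that differed between these library classes was not counted. In 11 of the 26 (42.3%) the libraries of the genotypes did not overlap, against 19.0% of all genes tested. A gene that passed the filter only through Mina53-KO was favoured to be higher there. Among the 20 collagen genes that passed through both genotypes, 9 (45%) did not overlap, against 18.6% of all such genes, and the median log2 fold change was 0.12, against 0.01 over all such genes. Of the 11, Mina53-KO was above WT in 8 (Col5a1, Col27a1, Col4a5, Col18a1, Col4a6, Col20a1, Col7a1 and Col28a1) and below it in 3 (Col4a1, Col4a2 and Col9a1).

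**Figure D2:**
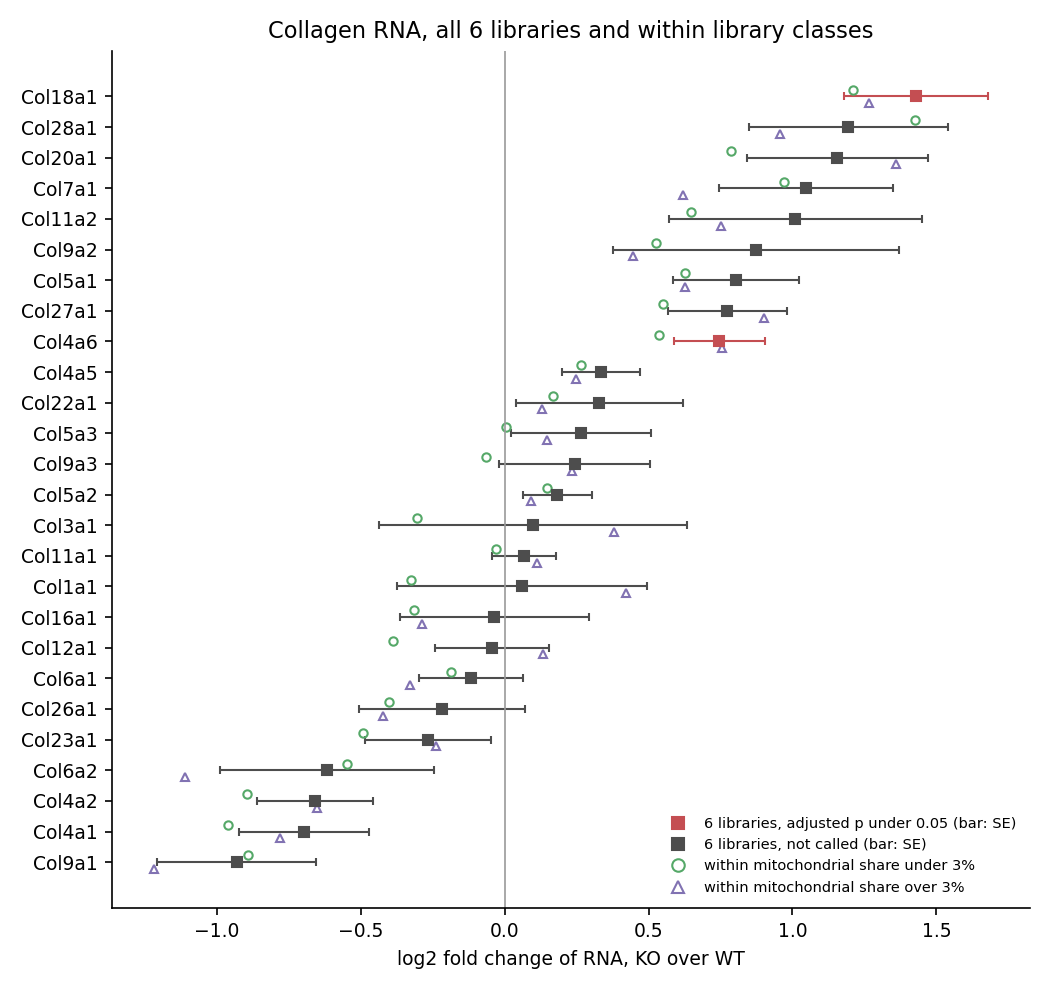
Log2 fold change of Mina53-KO over WT for the 26 collagen genes tested; squares with bars of 1 SE are from all 6 libraries, and open circles and triangles are from the libraries with a mitochondrial share under and over 3%. Col18a1 (1.43) and Col4a6 (0.75) passed the threshold, and values ran from -0.93 for Col9a1 to 1.43.

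Among basement membrane collagens, Col18a1 and Col4a6 rose and the other 3 tested genes did not pass. None of the 5 had overlapping genotypes: Mina53-KO values were above WT values for Col18a1, Col4a6 and Col4a5 and below them for Col4a1 and Col4a2. Col18a1 (ENSMUSG00000001435) encodes the core of a heparan sulfate proteoglycan of basement membranes, and its end is cleaved to release endostatin. It had 37.4, 41.0 and 26.4 CPM in Mina53-KO libraries 1, 2 and 3 and 17.0, 9.09 and 12.8 CPM in WT libraries 1, 2 and 3. The lowest Mina53-KO library was thus above the highest WT library. Col18a1 averaged 34.9 ± 7.61 CPM in Mina53-KO and 13.0 ± 3.94 CPM in WT libraries (SD, n = 3 each). The log2 fold change was 1.43 (SE 0.25, edgeR adjusted p = 0.0211), or 2.69-fold. Within the low-share libraries its log2 fold change was 1.21, and within the high-share libraries 1.26.

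Col4a6 (ENSMUSG00000031273), a type IV chain that assembles with the product of Col4a5, had 35.7, 35.6 and 30.5 CPM in Mina53-KO and 24.6, 17.1 and 19.0 CPM in WT libraries. All Mina53-KO values were higher than all WT values. The log2 fold change was 0.75 (SE 0.16, edgeR adjusted p = 0.0462), or 1.68-fold. Within the low-share libraries it was 0.54 and within the high-share libraries 0.76. Neither call held in every fit that left out 1 library. Leaving out Mina53-KO 1, Mina53-KO 2, WT 2 or WT 3 left no collagen gene called. Leaving out WT 1 left 3 called, and leaving out Mina53-KO 3 left 4. Over all genes, calls fell from 525 to 179, 179, 313 and 145 without Mina53-KO 1, Mina53-KO 2, WT 2 and WT 3. They numbered 478 without WT 1 and 506 without Mina53-KO 3. The direction did not change in any of these 6 fits, with log2 fold changes of 1.22 to 1.67 for Col18a1 and 0.63 to 0.91 for Col4a6.

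Col4a5 (ENSMUSG00000031274), next to Col4a6, had 79.6, 77.4 and 66.4 CPM in Mina53-KO and 65.3, 50.2 and 61.5 CPM in WT libraries. Its genotypes did not overlap, but the log2 fold change of 0.34 (SE 0.14) did not pass (edgeR adjusted p = 0.315). Col4a1 (ENSMUSG00000031502) and Col4a2 (ENSMUSG00000031503) encode the type IV chains found in nearly all basement membranes. Col4a1 had 18.8, 17.7 and 13.0 CPM in Mina53-KO and 35.5, 21.2 and 23.5 CPM in WT libraries, a log2 fold change of -0.70 (SE 0.23, edgeR adjusted p = 0.18). Col4a2 had 6.67, 5.74 and 5.14 CPM in Mina53-KO and 11.5, 8.63 and 7.52 CPM in WT libraries, a log2 fold change of -0.66 (SE 0.20, edgeR adjusted p = 0.153). In both, every Mina53-KO library was below every WT library, though neither passed. Within the low-share libraries the log2 fold change was -0.96 for Col4a1 and -0.90 for Col4a2. Within the high-share libraries it was -0.78 for Col4a1 and -0.65 for Col4a2. Summed over the type IV genes, levels were 131 ± 13.4 CPM in Mina53-KO and 116 ± 20.3 CPM in WT libraries, a difference within the spread.

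**Figure D3:**
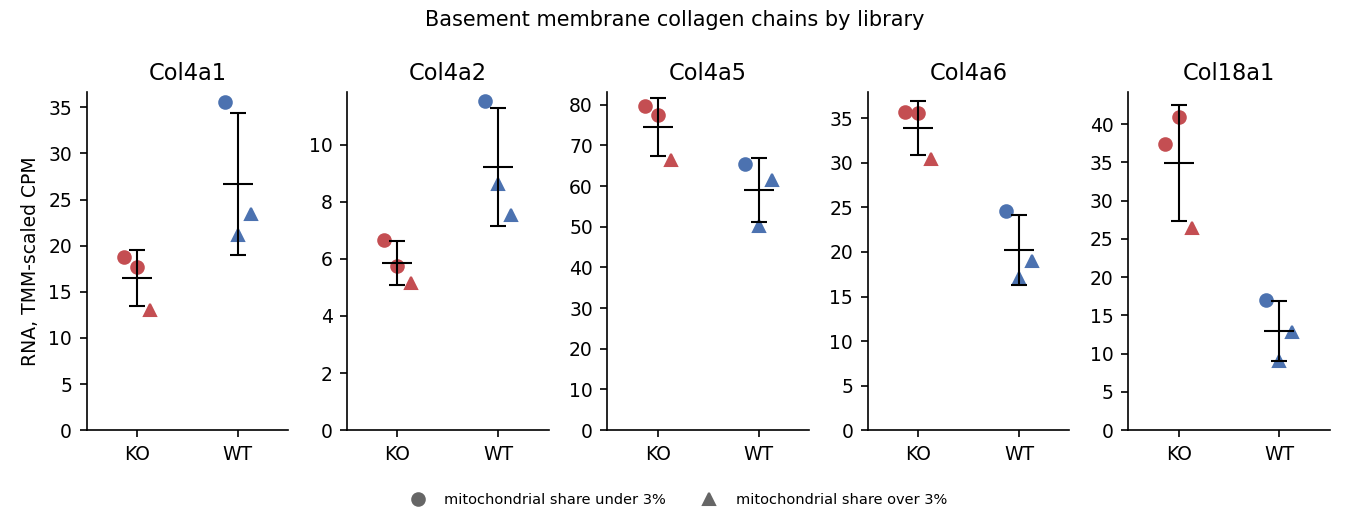
CPM of the 5 tested basement membrane collagen genes in each RNA library, Mina53-KO left of WT; points are libraries (circles under and triangles over 3% mitochondrial share) and bars show the mean and SD of 3. Col18a1 had 26.4 to 41.0 CPM in Mina53-KO and 9.09 to 17.0 CPM in WT libraries, whereas Col4a1 had 13.0 to 18.8 CPM in Mina53-KO and 21.2 to 35.5 CPM in WT libraries.

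Markers of other cell types that make basement membrane were also measured. The 10 endothelial markers summed to 55.4 to 63.9 CPM in Mina53-KO and 24.4 to 32.2 CPM in WT libraries. Of these 10 genes, 3 had enough reads to test and Flt1, a VEGF receptor, rose, with 51.6 to 59.1 CPM in Mina53-KO and 21.3 to 28.6 CPM in WT libraries, which is most of the sum. Kdr, another VEGF receptor, had 1.5 to 1.78 CPM in Mina53-KO and 0.760 to 1.00 CPM in WT libraries and did not pass (edgeR adjusted p = 0.122). Vwf, also tested, had a log2 fold change of 0.05 (edgeR adjusted p = 0.965). Pecam1, which was not tested, went the other way, with 4, 5 and 3 counts in Mina53-KO and 9, 6 and 7 counts in WT libraries. Cdh5 and Cldn5, defining markers of endothelium, had no counts in any library. The 8 pericyte markers summed to 197 to 279 CPM in Mina53-KO and 143 to 255 CPM in WT libraries, mostly Notch3 and Cspg4, and none of the 3 tested was called. Of these, Rgs5 had 1.62 to 2.08 CPM in Mina53-KO and 0.591 to 1.12 CPM in WT libraries (edgeR adjusted p = 0.102). The log2 fold changes of Notch3 and Cspg4 were 0.49 and -0.09. Pdgfrb, a pericyte marker that was not tested, had 2, 8 and 1 counts in Mina53-KO and 19, 7 and 15 counts in WT libraries. The 14 fibroblast and meningeal markers summed to 53.0 to 59.1 CPM in Mina53-KO and 71.3 to 82.0 CPM in WT libraries. Of 8 tested, Foxc1 and Acta2 fell and Twist1 was called as higher. Twist1 had 11, 22 and 18 counts in Mina53-KO and 1, 3 and 4 counts in WT libraries. It thus passed the filter on low counts only through Mina53-KO and was favoured to be higher there. The part of these cells in the collagen values was not tested.

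All 8 tested fibrillar genes had a positive log2 fold change, with a median of 0.22, but Col11a2 passed the filter only through Mina53-KO. Within the low-share libraries, Col11a1 (-0.03), Col3a1 (-0.30) and Col1a1 (-0.33) were negative. None was called by edgeR, 2 had an unadjusted p below 0.05, and DESeq2 called those 2, Col5a1 and Col27a1. Col5a1, which joins Col5a2 in type V collagen, had 28.3, 28.5 and 19.6 CPM in Mina53-KO and 18.4, 11.3 and 14.1 CPM in WT libraries. Its genotypes did not overlap, and its log2 fold change was 0.80 (SE 0.22, edgeR adjusted p = 0.104). DESeq2 called it, at an adjusted p of 0.0116. Col27a1, a fibrillar collagen of cartilage, had 4.89, 3.66 and 4.28 CPM in Mina53-KO and 2.91, 2.47 and 2.12 CPM in WT libraries, a log2 fold change of 0.77 (SE 0.21, edgeR adjusted p = 0.101). Col5a2 had 93.8, 94.6 and 81.3 CPM in Mina53-KO and 85.0, 70.6 and 82.0 CPM in WT libraries. Col11a1 had 85.6, 77.0 and 80.6 CPM in Mina53-KO and 83.1, 70.3 and 78.7 CPM in WT libraries. The genotypes of these abundant genes overlapped, with log2 fold changes of 0.18 (SE 0.12, edgeR adjusted p = 0.649) and 0.07 (SE 0.11, edgeR adjusted p = 0.901). Col5a3 had 50.2, 46.8 and 33.2 CPM in Mina53-KO and 48.4, 26.1 and 33.8 CPM in WT libraries, and its genotypes overlapped, with lower values in the high-share libraries of each genotype. The remaining fibrillar genes were sparse, and Col11a2 (1.01), Col3a1 (0.10) and Col1a1 (0.06) had log2 fold changes with SEs of 0.44, 0.54 and 0.43.

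None of the 13 tested genes of other types was called by edgeR or DESeq2, and 4 had an unadjusted p below 0.05. Their median log2 fold change was -0.04, with 6 positive and 7 negative. Of the positive genes, Col9a2, Col20a1 and Col28a1 passed the filter only through Mina53-KO. Among the 10 genes of this class that passed through both genotypes, the median was -0.08, with 3 positive. Col16a1 had 66.3, 66.1 and 37.7 CPM in Mina53-KO and 82.4, 34.0 and 57.8 CPM in WT libraries, a log2 fold change of -0.04 (SE 0.33). WT 1 was the highest library and WT 2 the lowest, and the gene spread widely within each genotype. Col6a1, a chain of beaded filaments, had 20.0, 23.8 and 15.8 CPM in Mina53-KO and 25.0, 19.1 and 20.5 CPM in WT libraries, a log2 fold change of -0.12 (SE 0.18). Col9a3, a fibril-associated chain of cartilage, had 11.2, 16.9 and 10.6 CPM in Mina53-KO and 14.7, 8.30 and 9.68 CPM in WT libraries, a log2 fold change of 0.24 (SE 0.26). Its genotypes overlapped. Among less abundant genes, Col7a1, which anchors epithelia to their matrix, had 3.36, 3.91 and 2.02 CPM in Mina53-KO and 1.86, 1.44 and 1.20 CPM in WT libraries, a log2 fold change of 1.05 (SE 0.30, edgeR adjusted p = 0.129). Col9a1 had 0.989, 0.790 and 0.623 CPM in Mina53-KO and 1.65, 1.60 and 1.31 CPM in WT libraries, a log2 fold change of -0.93 (SE 0.28, edgeR adjusted p = 0.141). Neither gene's genotypes overlapped. Col20a1 (1.16) and Col28a1 (1.19) had the next largest log2 fold changes after Col18a1 and did not pass either. The log2 fold changes of the remaining 6 (Col6a2, Col12a1, Col9a2, Col22a1, Col26a1 and Col23a1) ran from -0.62 for Col6a2 to 0.87 for Col9a2, with edgeR adjusted p of at least 0.556.

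The 18 genes not tested had at most 19 counts in a library. They were Col2a1, Col24a1 and Col1a2 of the fibrillar class, Col4a3, Col4a4 and Col15a1 of basement membranes, and Col6a4, Col6a3, Col6a6, Col6a5, Col19a1, Col14a1, Col8a2, Col10a1, Col8a1, Col25a1, Col13a1 and Col17a1 of other types. Col6a3, a long chain of type VI collagen, had 5, 1 and 3 counts in Mina53-KO and 18, 9 and 14 counts in WT libraries. Col13a1, which spans the membrane, had 13, 6 and 4 counts in Mina53-KO and 1, 1 and 3 counts in WT libraries. In both the genotypes did not overlap, but neither was among the 3 collagen genes called when no filter was set. Col8a1 had no counts in Mina53-KO and 4, 3 and 0 counts in WT libraries, which does not separate the genotypes at this depth.

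Among genes that process, bind or degrade collagen, 5 of 47 tested were called by edgeR, 3 higher and 2 lower, against 3.43% of all genes tested. DESeq2 called 7 of the list, adding P4ha1 and Loxl2, against 6.26% of all genes. Leaving out Mina53-KO 1, Mina53-KO 2, WT 2 or WT 3 left 1 gene of the list called. Leaving out WT 1 left 3 and leaving out Mina53-KO 3 left 4, and Ddr2 was called in all 6 fits. Calls over all genes in these fits numbered 179, 179, 313, 145, 478 and 506 in that order, against 525 with every library. None of the 20 tested genes of chain modification and folding was called by edgeR, and 4 had an unadjusted p below 0.05, against 13.7% of all genes tested. P4hb, a subunit of prolyl hydroxylase, averaged 578 ± 22.6 CPM in Mina53-KO and 593 ± 24.3 CPM in WT libraries, and Serpinh1, the collagen chaperone, 299 ± 56.9 CPM in Mina53-KO and 310 ± 59.8 CPM in WT libraries (SD, n = 3 each). P4ha1, a catalytic subunit of prolyl hydroxylase, was called by DESeq2 and, in edgeR, with RLE scaling, the CPM filter or the mitochondrial covariate, but lay just outside the threshold here, at a log2 fold change of -0.47 (SE 0.10, edgeR adjusted p = 0.0503).

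Of 6 tested genes of procollagen trimming, 2 rose, and 4 had an unadjusted p below 0.05, against 13.7% of all genes tested. Adamts14, which removes the amino end of procollagen, had 53.8, 61.5 and 40.1 CPM in Mina53-KO and 29.7, 17.7 and 22.8 CPM in WT libraries, a log2 fold change of 1.15 (SE 0.22, edgeR adjusted p = 0.0318). Pcolce, which enhances cleavage of the other end, had 19.2, 20.5 and 13.5 CPM in Mina53-KO and 9.03, 7.15 and 7.79 CPM in WT libraries, a log2 fold change of 1.15 (SE 0.19, edgeR adjusted p = 0.0167). Their genotypes did not overlap. Bmp1, the protease that makes that cleavage, averaged 280 ± 44.8 CPM in Mina53-KO and 207 ± 39.2 CPM in WT libraries and did not pass (edgeR adjusted p = 0.298). Pcolce2, a relative of Pcolce, had a log2 fold change of 0.27 that did not pass (edgeR adjusted p = 0.789). In the other direction, Adamts3 had 0.593, 0.998 and 0.739 CPM in Mina53-KO and 1.94, 1.32 and 1.81 CPM in WT libraries. Its genotypes did not overlap, but its log2 fold change of -1.11 (SE 0.30) did not pass (edgeR adjusted p = 0.103).

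Of 4 tested genes of cross-linking, Pxdn rose, and all 4 had an unadjusted p below 0.05, against 13.7% of all genes tested. Peroxidasin, its product, cross-links type IV collagen. Pxdn had 81.7, 84.3 and 83.1 CPM in Mina53-KO and 59.6, 54.9 and 61.9 CPM in WT libraries, a log2 fold change of 0.50 (SE 0.10, edgeR adjusted p = 0.0388). Loxl2, a lysyl oxidase relative that also acts on type IV collagen, averaged 6.97 ± 3.15 CPM in Mina53-KO and 17.0 ± 5.02 CPM in WT libraries, a log2 fold change of -1.29 that did not pass (edgeR adjusted p = 0.119). Loxl3, of the same family, averaged 12.6 ± 1.75 CPM in Mina53-KO and 17.0 ± 2.80 CPM in WT libraries (edgeR adjusted p = 0.315). Loxl1 went the other way, with 2.49 ± 0.773 CPM in Mina53-KO and 1.10 ± 0.556 CPM in WT libraries. Its genotypes overlapped, and its log2 fold change of 1.17 (SE 0.42) did not pass (edgeR adjusted p = 0.229).

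Of 9 tested receptor genes, 1 had an unadjusted p below 0.05, against 13.7% of all genes tested. This was Ddr2, a discoidin domain receptor for fibrillar collagens, which fell the most of the called genes on the list. It had 32.0, 37.7 and 44.0 CPM in Mina53-KO and 75.9, 89.2 and 92.6 CPM in WT libraries, a log2 fold change of -1.18 (SE 0.15, edgeR adjusted p = 0.00547). Every Mina53-KO library was below every WT library. Ddr1, which also binds type IV collagen, averaged 663 ± 141 CPM in Mina53-KO and 510 ± 145 CPM in WT libraries and did not pass (edgeR adjusted p = 0.604). Itgb1, the shared beta chain of collagen-binding integrins, averaged 850 ± 111 CPM in Mina53-KO and 901 ± 115 CPM in WT libraries, within the spread. Adgrg1, a receptor for collagen III, averaged 889 ± 56.0 CPM in Mina53-KO and 912 ± 132 CPM in WT libraries, while Col3a1 itself had 3, 17 and 12 counts in Mina53-KO and 13, 7 and 11 counts in WT libraries. Among 8 tested genes of collagen breakdown and its inhibitors, 2 had an unadjusted p below 0.05, against 13.7% of all genes tested. Of these, only Timp4, an inhibitor of metalloproteinases, was called, as lower. It had 168, 175 and 168 CPM in Mina53-KO and 233, 252 and 225 CPM in WT libraries, a log2 fold change of -0.48 (SE 0.10, edgeR adjusted p = 0.0369). Mmp15, a membrane-bound metalloproteinase, had a log2 fold change of -0.11 (edgeR adjusted p = 0.901), and the inhibitor Timp2 averaged 134 ± 5.55 CPM in Mina53-KO and 141 ± 1.89 CPM in WT libraries, and neither passed. The collagenase genes Mmp8 and Mmp13 and the protease gene Fap had no counts in any library.

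**Figure D4:**
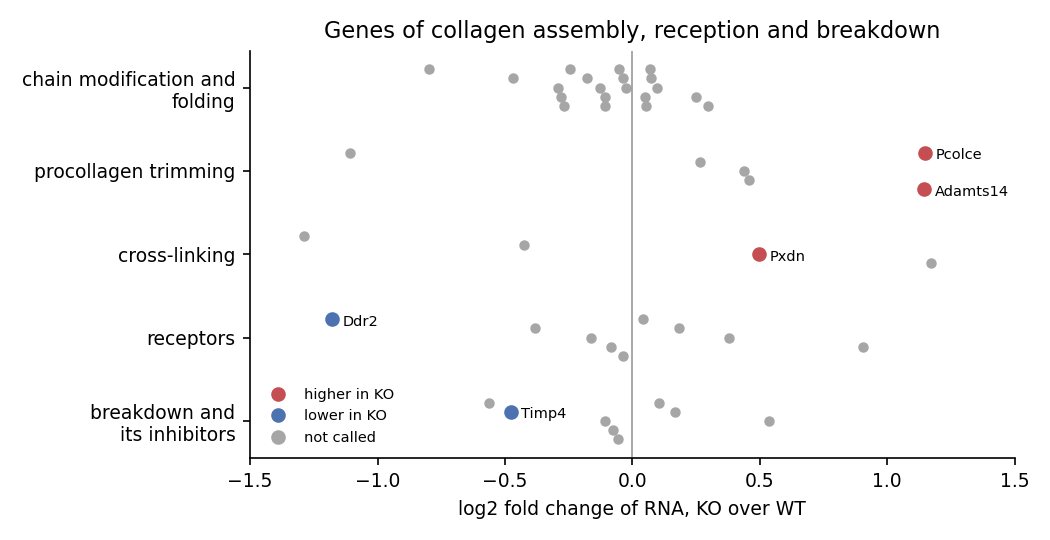
Log2 fold change of Mina53-KO over WT for the tested genes of collagen processing, binding and breakdown, by role; each point is a gene, and colour marks those called by edgeR. Adamts14 and Pcolce (1.15 each) and Pxdn (0.50) lie above 0 and passed, as did Ddr2 (-1.18) and Timp4 (-0.48) below it.

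CUT&Tag signal at collagen genes did not differ in any region or gene at an adjusted p below 0.05. The deposited table assigned 148 regions to 37 collagen genes on GRCm39, all of them tested; a median of 39 reads fell in a region in a library. No region was assigned to Col10a1, Col11a2, Col4a5, Col4a6, Col5a2, Col5a3 or Col6a1, so there is no CUT&Tag value for Col4a6. Promoter regions made up 41 of the 148 (27.7%, against 30.5% of all regions), introns 63 (42.6%, against 35.9%), exons 12 (8.11%, against 2.66%) and intergenic regions 27 (18.2%, against 28.0%). Peaks were marked in more collagen regions in Mina53-KO libraries (83 and 62) than in WT libraries (42 and 39), and peak marks over all regions numbered 40699 and 30806 in Mina53-KO and 20867 and 22821 in WT libraries. Collagen regions held 0.198% and 0.206% of region reads in Mina53-KO and 0.201% and 0.197% in WT libraries.

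None of the 148 regions was called by edgeR, against 0.00722% of all 69209 tested regions, and the smallest adjusted p was 0.268. An unadjusted p below 0.05 was found in 8 regions, against 5.35% of all regions, and the genotypes did not overlap in 51, against 34.7%. DESeq2 called none. Summed per gene, 0 of 37 were called by edgeR or DESeq2, against edgeR calls in 0.0881% of 13628 genes, and 6 had an unadjusted p below 0.05, against 7.62%. In 17 the genotypes did not overlap, against 37.3%. With 2 libraries per genotype, this does not show that the signal was the same.

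The region with the smallest p lay at Col16a1, 2862 bases from the start of the transcript the authors assigned (chromosome 4, 129975665 to 129975978, promoter class). It had 85 and 64 reads in Mina53-KO and 115 and 100 reads in WT libraries, or 20.7 and 19.0 CPM in Mina53-KO and 37.2 and 34.6 CPM in WT libraries. Its log2 fold change was -0.85 (SE 0.22, edgeR adjusted p = 0.268), and the authors' deposited table gives a log2 fold change of -0.77. Over the 6 regions of Col16a1, the sum was 257 and 281 CPM in Mina53-KO and 324 and 325 CPM in WT libraries, a log2 fold change of -0.27 (SE 0.09, edgeR adjusted p = 0.415). The region of Col9a2 in the promoter class had 17.8 and 12.2 CPM in Mina53-KO and 7.76 and 6.57 CPM in WT libraries, a log2 fold change of 1.07 (SE 0.38, edgeR adjusted p = 0.771). It is the only region of Col9a2; scaled with the sums per gene, its log2 fold change was 1.11 (SE 0.39, edgeR adjusted p = 0.415). At both genes the genotypes were apart without passing.

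Regions nearest to an assigned transcript's start were also compared for the abundant genes. At the start of Col11a1 (chromosome 3, 113823847 to 113824325), where all 4 libraries had a peak, signal was 20.5 and 18.4 CPM in Mina53-KO and 25.2 and 20.1 CPM in WT libraries. At the start of Col16a1 (chromosome 4, 129941493 to 129941882) it was 24.4 and 30.8 CPM in Mina53-KO and 30.4 and 38.1 CPM in WT libraries. At both starts the genotypes overlapped or nearly touched. For Col9a3 the nearest region lay 1773 bases away (chromosome 2, 180242372 to 180242777), with 21.7 and 21.6 CPM in Mina53-KO and 31.7 and 29.8 CPM in WT libraries, a log2 fold change of -0.50 (SE 0.23, edgeR adjusted p = 0.903). For Col18a1 it lay 2147 bases away (chromosome 10, 76947054 to 76947392), with 19.0 and 17.2 CPM in Mina53-KO and 19.4 and 10.4 CPM in WT libraries. For Col4a1 it lay 197 bases away (chromosome 8, 11290752 to 11290951), with 6.34 and 11.3 CPM in Mina53-KO and 5.82 and 4.15 CPM in WT libraries. None of these 5 regions passed.

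At Col27a1 an intronic region (chromosome 4, 63234354 to 63234986) was lower, with 33.7 and 26.4 CPM in Mina53-KO and 42.0 and 48.4 CPM in WT libraries. A promoter region of the same gene (chromosome 4, 63135015 to 63135635) was higher, with 26.8 and 30.5 CPM in Mina53-KO and 19.7 and 18.3 CPM in WT libraries. The gene thus held regions of opposite direction, neither past the threshold. The remaining pair of regions picked by lowest p lay outside genes. A region near Col1a1 (chromosome 11, 94819558 to 94820009) had 17.3 and 19.6 CPM in Mina53-KO and 29.4 and 24.2 CPM in WT libraries. A region near Col18a1 (chromosome 10, 77018509 to 77019454) had 30.2 and 24.3 CPM in Mina53-KO and 23.9 and 15.9 CPM in WT libraries. Neither passed. Summed over their regions, Col18a1 had 190 and 163 CPM in Mina53-KO and 168 and 154 CPM in WT libraries, a log2 fold change of 0.14 (SE 0.12). Col4a1 had 56.2 and 73.0 CPM in Mina53-KO and 61.6 and 47.1 CPM in WT libraries, and Col4a2 110 and 129 CPM in Mina53-KO and 118 and 106 CPM in WT libraries. In these 3 genes the genotypes overlapped. Of the 20 collagen genes tested in both assays, 14 had the same sign of log2 fold change in RNA and CUT&Tag, and Pearson's r across these genes, which share libraries within each assay, was 0.15. Among the 14, Col9a2, Col20a1 and Col28a1 passed the RNA filter only through Mina53-KO. The share with the same sign over all genes was not computed, so the 14 are not read as agreement between the assays.

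**Figure D5:**
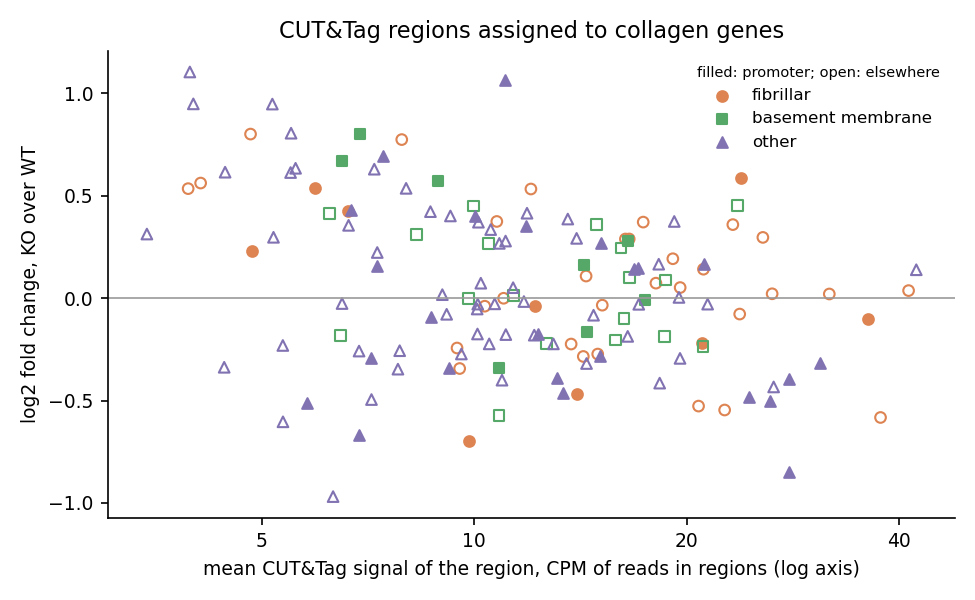
CUT&Tag log2 fold change of Mina53-KO over WT against mean CPM (log axis) for the 148 regions assigned to collagen genes; each point is a region, filled in promoters and open elsewhere, with shape and colour for the class. Regions scatter on both sides of 0, with 77 above and 71 below, and none passed.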

How the data were processed

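Poly(A) RNA was sequenced from Mina53-KO and WT NSPCs, per the labels' protocols. The authors deposited estimated counts per Ensembl gene with gene lengths; the submitters' processing notes name GRCm39, HISAT2 and StringTie. The sources used here do not state the counter or its strand setting. For CUT&Tag, the authors deposited read counts, RPM, a log2 fold change and p-values and q-values per merged region; its aligner and peak caller are likewise not stated. The deposited RPM values were (count + 1) over a library total and were used only for library totals in an alternative; the deposited log2 values and p-values were described, not tested. The authors' test is not named.

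Estimated counts were rounded and tested with edgeR 4.0.16 (R 4.3.3): filterByExpr with a minimum count of 10, TMM scaling, robust quasi-likelihood, Benjamini-Hochberg over all genes or regions and a threshold of 0.05. SE is the log2 fold change over the square root of F. CPM is TMM-scaled. TPM uses the deposited gene length. CUT&Tag counts were tested the same way, per region and summed per gene, and scripts were tested on simulated data. DESeq2 1.42.0, other scalings and filters, a replicate block, mitochondrial share (boundary 3%) as covariate and leaving out each library were alternatives. Comparisons within each mitochondrial class, from a shared fit to all RNA libraries, were added after seeing the data. The genes, classes and lists were chosen with earlier results of these data known. By rule the text names collagen genes that were called or among the 10 most abundant, called genes of the processing list with the 2 most abundant others per role, the 3 collagen regions per direction with the lowest p, the gene with the lowest p per direction by summed reads, and the region nearest the start of each abundant gene. Others, such as genes whose genotypes did not overlap, were chosen after their values were seen.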

Additional observations from a re-analysis of the deposited data

How the results depend on the processing

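Among collagen genes in RNA, 2 were called; DESeq2 called 5 (4 higher and 1 lower), the fit with mitochondrial share as a covariate 8 (5 higher, with Col5a1, Col27a1 and Col7a1 added, and 3 lower, Col4a1, Col4a2 and Col9a1), and fits leaving out 1 library called 0 to 4. For the collagen processing list, 5 were called, 11 with the covariate (3 higher and 8 lower) and 1 to 4 leaving out 1 library. Mitochondrial share as a covariate called 11.1% of all genes, so the 8 are not set against 3.43%. Fits leaving out 1 library called 145 to 506 of all genes tested, against 525 with every library. CUT&Tag regions and genes had no call under any alternative run. Replicate numbers were entered as a block because the labels give them to both genotypes. The block left 0 collagen genes and 2 processing genes (Ddr2 and Loxl2) called. Over all 15298 genes it left 229 called, against 525 without it. The correlations of same-numbered RNA libraries' deviations were 0.46, -0.37 and 0.27. Libraries numbered 1 and those numbered 3 had the same mitochondrial class in both genotypes, whereas those numbered 2 did not. These correlations therefore do not settle whether the numbers pair the samples. With the block, the log2 fold change was 1.44 for Col18a1 (edgeR adjusted p = 0.0586), 0.76 for Col4a6 (edgeR adjusted p = 0.0768) and 0.00041 for Col16a1, which changed sign. Signs also changed, in genes that were never called, leaving out 1 library for Col16a1 (-0.32 to 0.30), Col9a3 (-0.0038 to 0.52), Col6a1 (-0.27 to 0.017) and Col11a1 (-0.0068 to 0.12), and within the low-share libraries for Col11a1 (-0.031), Col9a3 (-0.063), Col3a1 (-0.30) and Col1a1 (-0.33), and within the high-share libraries for Col12a1 (0.13), so that 21 of 26 genes had 1 sign in both classes. The cause was not tested. Depth limits the 18 untested genes.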
